A study of Mus musculus with 120 samples.

Results

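The mRNA of wild-type (WT) MEFs, the fibroblasts that grow out of cultured mouse embryo tissue, was compared between untreated cells and cells given thapsigargin for 2 h. Genes were taken from the deposited mRNA table when both WT totals, untreated (0 h) and 2 h, were above 0 and at least 1 of them reached 20 RPKM (reads normalised to coding length and library size). This rule held for 4275 of 22417 genes, and 826 of them carry the table's flag for mRNAs targeted to the endoplasmic reticulum (ER). The same rule applied to 1 h and 4 h would take 4116 and 4590 genes. The last genes inside the limit were Katnbl1, Pus7 and Tpgs2, whose higher totals were 20.001, 20.006 and 20.032 RPKM. The first outside it were Gm6749, Spata5 and Tgds at 19.995, 19.99 and 19.99 RPKM.

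All WT groups carry unaltered eIF2α and ATF4, and thapsigargin was used at 1 µM. At each time cells were split into cytosol and ER extracts, with 2 mRNA libraries per fraction and time, so 8 libraries carry the comparison of 2 h with 0 h. The replicate numbers in the labels differ between the untreated cytosol and ER mRNA libraries. The labels thus do not show that all untreated libraries are fractions of the same cells. WT libraries of 0.5, 1 and 4 h served to estimate the spread and to place the 2 h values in time, and WT ribosome footprints were set beside the mRNA. Totals of cells with the eIF2α S51A substitution and of cells labelled ATF4-/- are given for a few genes. Whether replicate libraries stem from separate cultures is not stated in the labels, and p-values here reflect library-to-library spread that could be technical alone. In bulk samples, fewer cells of a type and less RNA per cell cannot be told apart.

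Thapsigargin blocks the pump that loads the ER with calcium, which disturbs protein folding there and raises calcium in the cytosol. Cells answer with the unfolded protein response. Its sensor PERK phosphorylates eIF2α, which slows translation and favours ATF4, the activator of CHOP (gene Ddit3). Its sensors ATF6 and IRE1 raise the genes of ER chaperones and of ER-associated degradation. Cytosolic calcium acts on calcineurin, whose own inhibitor Rcan1 is a target of the calcineurin-NFAT pathway.

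The 8 mRNA libraries were shallow, with 57178 to 118992 reads each (median 94450.5). The pooled totals therefore moved widely for low genes. Over the 4275 genes the pooled log2 change had a median of −0.105 and an SD of 0.72 across genes, and 606 genes (14.2%) stood past 2-fold. Of these, 293 were higher (6.85%) and 313 lower (7.32%), or 360 and 257 when the changes were centred on their median. A gene can reach the limit of 20 RPKM through 1 time alone, so the choice of genes itself favours changes in such counts. Among the 158 genes with a mean of under 1 read per library 53.8% lay past 2-fold, against 1.57% of the 703 genes with 20 reads or more. With a mean of 10 reads or more, 34 genes stood past 2-fold higher and 15 lower of 1414. Genes that mark fibroblasts were present: 14 of 15 had reads at each time, with Thy1 at 0 reads at 0 h and Fap at 2 h, and their summed level ran from 258 to 675 RPKM per library at 0 h and from 163 to 570 at 2 h. Of the markers of other cells, those at 0 reads at both times were Cldn5 (endothelium), Lyz2 and Hbb-b1 (blood), Krt8 (epithelium), Gfap and Snap25 (nervous tissue) and Des (muscle), while other markers of these lists had reads. At 0 h and 2 h, 7 and 7 of 8 endothelial markers had reads, 6 and 7 of 9 blood, 4 and 6 of 8 epithelial, 4 and 6 of 8 neural, 9 and 7 of 10 muscle and 5 and 6 of 6 adipocyte markers. The endothelial marker Emcn, 1 of the 4275 genes, had 1 read over the untreated libraries, and 0 and 1 reads in cytosol and 8 and 6 in ER at 2 h, with pooled totals of 6.78 and 37.9 RPKM. The part of other cells in the results was not tested. The highest summed levels in any library at 0 h and 2 h were 13.8 and 41.1 RPKM for 8 endothelial markers, 19.5 and 14.03 for 9 blood markers, 8.11 and 18.1 for 8 epithelial, 77.7 and 36.9 for 8 neural and 27.3 and 50 for 6 adipocyte markers. The 10 muscle and myofibroblast markers, among them the smooth muscle genes Acta2 and Tagln, summed to 341 to 476 RPKM at 0 h and 222 to 428 at 2 h.

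The levels of single libraries were computed from the pooled values, and 1500 genes with a mean of 10 reads or more were tested with limma on log2(RPKM + 1). Of these, 1414 belong to the 4275 genes. The 2 libraries of each fraction and time are called a and b, which are names without an order. For the mean of both fractions 35 genes passed at an adjusted p under 0.05 (2.33%), 27 higher (1.8%) and 8 lower (0.533%), and all 35 belong to the 4275. The median change of all tested genes was −0.06. By unadjusted p under 0.05, 118 genes were higher and 100 lower. The 2 h libraries all lay above the 0 h libraries of their fraction for 72 tested genes (4.8%) and all below for 117 (7.8%). The count of 35 fell to 9 without cytosol 0 h library a, to 19 without cytosol 2 h library a, and to 15 and 21 without ER 2 h library a or b. Of the 35 calls 8, 22, 19 and 21 were kept without cytosol 0 h a, cytosol 0 h b, ER 0 h a and ER 0 h b, and 19, 26, 15 and 20 without the same libraries of 2 h. Ddit3, Hist1h1a, Hsp90b1, Klf6, Manf and Rcan1 kept their call under every alternative that tested them. All other calls of the 35 were lost under 1 alternative or more. Changes below are log2 values ± standard error for the mean of the fractions, over 2 libraries per fraction and time.

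**Figure D1:**
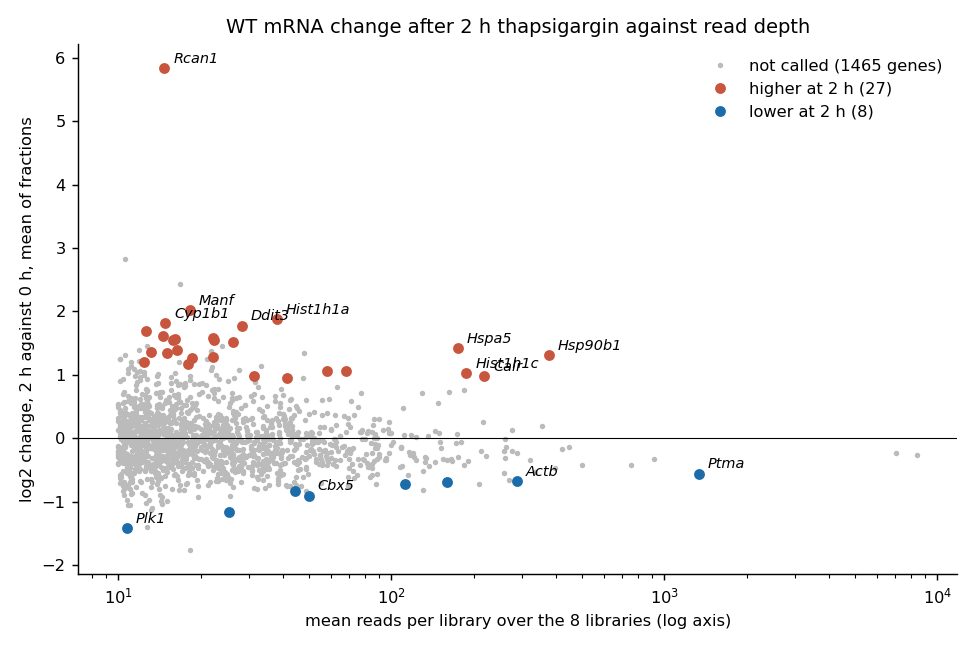
Log2 change of WT mRNA from 0 h to 2 h as the mean of both fractions (vertical axis) against the mean number of reads per library over the 8 libraries (horizontal axis, log scale), 1 point per tested gene. The 27 genes that rose and the 8 that fell are coloured, and Rcan1 stands highest at 5.83.

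Several genes of ER protein folding rose in the mean of fractions and none fell. Of 26 ER chaperones and folding enzymes among the 4275 genes 13 were tested, and 6 of them rose and none fell, with a list median of 0.85 against −0.06 for all tested genes. The 194 tested ER-targeted genes had a median of 0.14. By pooled totals 4 of the 26 stood past 2-fold higher and none lower, with a median of 0.07, while 6.85% of all 4275 were past 2-fold higher. The mean of fractions weighs cytosol and ER alike, so it also moves when mRNA passes between them. Hspa5 encodes BiP, the main ER chaperone. It stood at 21.4 and 16.6 RPKM in the untreated cytosol fraction and 453 and 322 RPKM in the untreated ER fraction, and at 61.5 and 63.3 RPKM (cytosol) and 705 and 1060 RPKM (ER) at 2 h. Every 2 h library was above both untreated libraries of its fraction, and Hspa5 rose by 1.42 ± 0.32 (adjusted p = 0.020). The call for Hspa5 held without ER 0 h a or ER 2 h a and was lost without any other of the 8 libraries (adjusted p from 0.054 to 0.11).

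Manf, a secreted ER protein that protects stressed cells, had 9.761 and 11.045 RPKM in untreated cytosol, 184 and 79.0 in untreated ER, 74.9 and 113 in cytosol at 2 h and 202 and 295 in ER at 2 h. The groups did not overlap in either fraction, and Manf rose by 2.02 ± 0.31 (adjusted p = 0.0013). Pdia4, a protein disulphide isomerase, rose by 1.55 ± 0.38 (0.030), with ER values of 86.3 and 30.4 RPKM at 0 h and 81.0 and 123 at 2 h that overlapped. Ppic, an ER cyclophilin, rose by 0.98 ± 0.25 (0.044). The calls of Pdia4 and Ppic were each lost in 11 of 15 alternatives, with an adjusted p of up to 0.20 for Pdia4.

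Hsp90b1 (GRP94, the HSP90 of the ER), Calr (calreticulin, a lectin chaperone that also binds calcium) and Pdia3 (its partner isomerase) rose in the mean of fractions by 1.31 ± 0.23 (adjusted p = 0.0055), 0.98 ± 0.20 (0.0095) and 0.95 ± 0.23 (0.030). The call of Pdia3 was lost in 12 of 15 alternatives (adjusted p up to 0.21). In all 3 the cytosol fraction passed its own test and the ER fraction did not. Hsp90b1 went from 20.8 and 21.01 to 156 and 127 RPKM there, while its ER libraries held 1234 and 1026 RPKM at 0 h and 922 and 1252 at 2 h, which overlap. The authors' pooled Hsp90b1 total, dominated by the ER fraction, was 1151 RPKM at 0 h and 1228 at 2 h. The pooled totals of Calr were 1203 and 1401 RPKM and those of Pdia3 217 and 197 RPKM. For Pdia3 both ER libraries of 2 h lay below both untreated ER libraries, so its rise is that of the cytosol fraction. For the whole list the median change was 1.79 in cytosol and −0.07 in ER, and the latter turned to 0.10 when libraries were scaled to the same median log ratio. Canx (calnexin, the membrane-bound lectin chaperone) stood at 0.77 ± 0.21 (adjusted p = 0.059), Hyou1 (an ER HSP70 relative) at 0.85 ± 0.45 (0.39) and P4hb (protein disulphide isomerase) at 0.82 ± 0.29 (0.18), and none of them passed.

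Promoters were searched because ATF6 is known to act on the ER stress response element, which reads CCAAT, then 9 bases of any kind, then CCACG. The windows ran from 250 bases before to 50 after each RefSeq gene start (GRCm38.p6), and 1207 of the 1500 tested genes had one, among them 24 of the 27 that rose and 5 of the 8 that fell. The element, read on both strands, lay in 5 of the 1207 tested promoters (0.414%) and in 0.119% of 32851 promoters in all. Of the 5 genes Hspa5, Hsp90b1 and Calr rose in the mean of fractions, while Canx at 0.77 and Hnrnpa3, an RNA-binding protein, at −0.41 ± 0.28 (adjusted p = 0.52) did not pass. The sites are shown because they are the letters the 3 risers share, in capitals, on the strand of the gene, where CGTGG and ATTGG are the element read on the opposite strand.
Hspa5, chr2:34772020-34772049: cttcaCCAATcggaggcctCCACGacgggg
Hsp90b1, first site, chr10:86705632-86705661: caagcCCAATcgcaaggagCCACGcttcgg
Hsp90b1, second site, chr10:86705527-86705556: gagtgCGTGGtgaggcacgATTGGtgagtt
Calr, chr8:84847069-84847098: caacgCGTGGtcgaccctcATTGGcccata
Canx, chr11:50325794-50325823: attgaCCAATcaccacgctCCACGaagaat
Hnrnpa3, chr2:75659012-75659041: cccgaCGTGGgctctcgccATTGGtcgagc
Hspa5 and Hnrnpa3 lie on the plus strand and the others on the minus strand. The site of Hspa5 ends 46 bases before the gene start, those of Hsp90b1 193 and 88 bases, that of Calr 143, that of Canx 126 and that of Hnrnpa3 223 bases. A match is a description of letters, not of binding.

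The other elements searched are given with their share of the 1207 tested promoters and then of all promoters. The second ER stress element (ATTGG, 1 base of any kind, CCACG) lay in 3 tested promoters (0.249% and 0.0365%), the XBP1-type element TGACGTGG in 18 (1.49% and 0.676%), the C/EBP-ATF composite TGATGNAA in 28 (2.32% and 3.97%) and an NF-κB consensus in 1 (0.0829% and 0.155%), none of them in a gene that rose. TGACGTCA, the cAMP response element, lay in 48 (3.98% and 1.79%), among them Rcan1, Hist1h4a and Hist1h4h, which rose, and Myl6, which fell. TNGCGTG, the dioxin response element, lay in 138 (11.4% and 5.07%), among them Klf6, Ptgs2 and Atf4, which rose, and Myl6. The plain CCAAT box, which is also part of the first element, lay in 516 (42.8% and 37.4%), in 16 of the 24 genes that rose and in 3 of the 5 that fell.

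**Figure D2:**
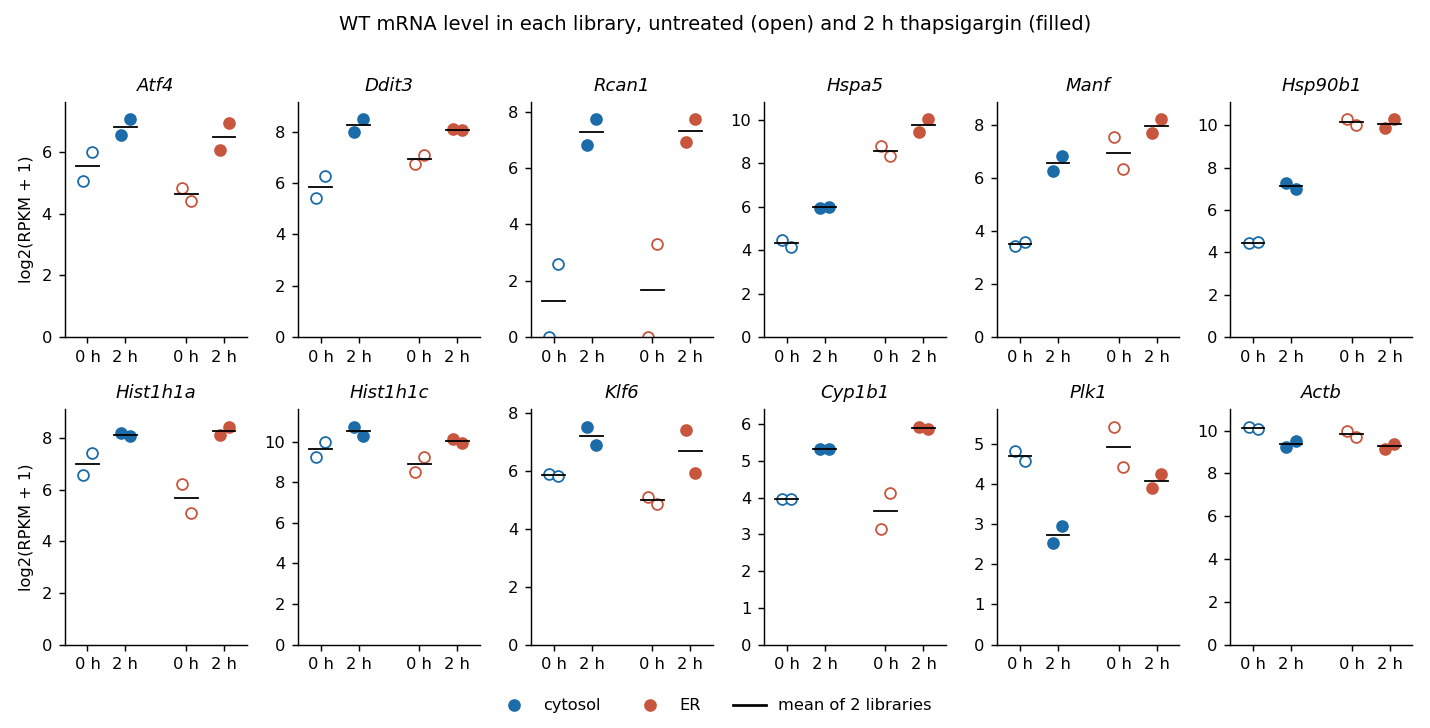
Level of WT mRNA as log2(RPKM + 1) for 12 genes, with untreated libraries as open and 2 h libraries as filled points, cytosol and ER in 2 colours, and a bar at the mean of 2. Rcan1, Ddit3 and Hspa5 lie higher at 2 h in both fractions, and Hsp90b1 in cytosol.

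Both tested genes of the PERK, ATF4 and CHOP list rose. Atf4, the transcription factor favoured by eIF2α phosphorylation, had 32.6 and 62.4 RPKM in untreated cytosol, 27.4 and 20.3 in untreated ER, 93.4 and 133 in cytosol at 2 h and 65.7 and 121 in ER at 2 h. The groups did not overlap in either fraction, and Atf4 rose by 1.58 ± 0.30 (adjusted p = 0.0072), with 1.35 and an adjusted p of 0.054 without cytosol 0 h a. Ddit3, which encodes CHOP, had 41.6 and 76.5 RPKM in untreated cytosol, 107 and 137 in untreated ER, 256 and 360 in cytosol at 2 h and 272 and 266 in ER at 2 h. The groups were again apart, and Ddit3 rose by 1.78 ± 0.22 (0.00016). Eif2s1, the gene of eIF2α itself, stood at −0.57 ± 0.25 (0.30), and Eif2ak3, the gene of PERK, was too low to test, with pooled totals of 3.03 RPKM at 0 h and 2.91 at 2 h.

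Of the 11 genes of that list among the 4275, 6 lay past 2-fold higher and 1 lower by their pooled totals, with a median of 1.25 against −0.105 for all 4275. Over all 4275 genes 6.85% were past 2-fold higher and 7.32% lower. Atf3 and Ppp1r15a reached the limit of 20 RPKM only at 2 h, and Ero1l only at 0 h. Most genes of the list had few reads. Ppp1r15a (GADD34, which directs the phosphatase that reverses eIF2α phosphorylation) had 7 and 4 reads in untreated cytosol, 3 and 2 in untreated ER, 14 and 13 in cytosol at 2 h and 12 and 13 in ER at 2 h. It was under the 10-read limit and passed only when the limit was lowered to a mean of 1 read (1.68 ± 0.33, adjusted p = 0.044). Gadd45b, a growth arrest and stress gene, went from 3, 2, 2 and 5 reads in the same order to 18, 16, 11 and 15, and passed under that limit too (2.33 ± 0.37, 0.018). Both genes had every 2 h library above the untreated ones of their fraction. The share of genes under 10 reads with such a lack of overlap is not given, and Gadd45b was named after its values were seen. Atf3, a stress transcription factor, had 1 read in all untreated libraries together and 8 at 2 h, and did not pass with the lower limit (2.80 ± 0.91, 0.33). Chac1, a glutathione-degrading enzyme induced by ATF4, and Trib3, a pseudokinase induced by CHOP, were outside the 4275 genes, with totals of 3.92 and 16.8 RPKM for Chac1 and 0 and 5.54 for Trib3, and Chac1 did not pass with the lower limit (2.58 ± 0.55, 0.063). Ero1l, an ER oxidase, was the gene past 2-fold lower, at 25.6 and 9.06 RPKM.

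Of 12 genes of amino acid supply among the 4275, 4 stood past 2-fold higher by pooled totals and none lower, with a median of 0.35. Over all 4275 genes 6.85% were past 2-fold higher. Aldh1l2 and Got1 reached the limit of 20 RPKM only at 2 h. Mthfd2, a mitochondrial enzyme of folate metabolism, rose by 1.2 ± 0.28 (adjusted p = 0.026), a call lost without any 1 of the 8 libraries, from 37.5 and 28.3 RPKM in cytosol and 15.2 and 15.2 in ER to 41.1 and 54.9 and to 51.7 and 65.9. Psat1 (serine synthesis, 0.19 ± 0.42, 0.88) and Phgdh (−0.10 ± 0.21, 0.87), which begins serine synthesis, did not pass. Asns, asparagine synthetase, had pooled totals of 35.3 RPKM at 0 h and 41.7 at 2 h, and did not pass with the limit at 1 read (0.26 ± 0.63, 0.96). Of 16 tested aminoacyl-tRNA synthetases, which charge tRNAs and of which several are known ATF4 targets, none passed, while 14 had a positive change and the median was 0.31.

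Genes of ER-associated degradation were mostly too low to test. Herpud1, a membrane protein of that pathway, had 0 and 0 reads in untreated cytosol, 0 and 2 in untreated ER, 4 and 5 in cytosol at 2 h and 6 and 15 in ER at 2 h. Summed over the libraries and scaled for depth, this is a ratio of 16.4 with an exact 95% interval of 4.15 to 141, which covers counting error only. Herpud1 passed when the limit was lowered to a mean of 1 read (limma, 3.48 ± 0.65, adjusted p = 0.039). The 2 tested genes of the list, Vcp (the segregase p97, −0.30 ± 0.26, adjusted p = 0.62) and Hspa13 (an ER-associated HSP70, −0.13 ± 0.45, 0.92), did not pass. The pooled totals of Xbp1, the transcription factor made by IRE1 splicing, were 16.6 and 39.6 RPKM, and its single libraries could not be separated. Those of Dnajb9, a co-chaperone, were 14.3 and 29.5 RPKM, of Sdf2l1, another ER co-chaperone, 16.01 and 20.7, of Edem1, a degradation lectin, 24.2 and 20.6, and of Bloc1s1, an mRNA cut by IRE1, 40.6 and 22.7 RPKM. With the limit at 1 read none of these 4 passed, at 2.04 ± 0.99 for Dnajb9 (adjusted p = 0.59), 1.64 ± 1.21 for Sdf2l1 (0.76), 0.60 ± 0.73 for Edem1 (0.88) and −1.41 ± 0.91 for Bloc1s1 (0.69). Of the reported IRE1 substrates 2 were tested, with a median of −0.15, and none passed.

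Rcan1, the calcineurin inhibitor, had the largest change of the 1500 genes. It had 0 and 1 reads in untreated cytosol and 0 and 1 in untreated ER, against 23 and 42 in cytosol and 20 and 31 in ER at 2 h, which is 111 and 214 RPKM in cytosol and 122 and 212 in ER. Every 2 h library was far above every untreated one. The depth-scaled ratio of reads was 63.3 with an exact 95% interval of 17.1 to 529, and Rcan1 rose by 5.83 ± 0.60 (adjusted p = 1.4e-05). With so few untreated reads the fitted value depends on the pseudocount and was 3.69 with a pseudocount of 10. The authors' average leaves out libraries without reads, so their untreated total of 13.9 RPKM is higher than the mean over all libraries. The other 6 tested genes of calcium handling did not pass, among them Atp2a2 (0.72 ± 0.40, adjusted p = 0.41), the calcium pump that thapsigargin blocks.

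Immediate early and inflammatory genes rose in part. Klf6, a zinc finger transcription factor, had 57.8 and 56.0 RPKM in untreated cytosol, 33.4 and 27.8 in untreated ER, 184 and 118 in cytosol at 2 h and 171 and 59.7 in ER at 2 h. The groups did not overlap, and Klf6 rose by 1.53 ± 0.28 (adjusted p = 0.0072). The other 2 tested immediate early genes, Plk2 (a stress kinase, −0.38 ± 0.31, 0.61) and Cyr61 (a matricellular protein, −0.19 ± 0.39, 0.86), did not pass, and the list median was −0.19. The pooled totals of Fos were 7.27 and 5.16 RPKM, of Egr1 7.04 and 5.58 and of Klf10 6.51 and 7.36, all below the limit of 20 RPKM, and those of Myc were 15.7 and 7.24. With the limit at 1 read Klf10 (0.71 ± 0.70, 0.84) and Myc (−1.24 ± 0.70, 0.65) did not pass.

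Of the 13 NF-κB and cytokine genes among the 4275, 8 stood past 2-fold higher by pooled totals and none lower, with a median of 1.13. Over all 4275 genes 6.85% were past 2-fold higher. Birc3, Ccl20, Irf1, Nfkb2 and Vcam1 reached the limit of 20 RPKM only at 2 h, so the choice of genes favours rises here. Of 4 tested, Ptgs2, the inducible prostaglandin synthase COX-2, rose by 1.06 ± 0.26 (adjusted p = 0.030), from 162 and 126 to 250 and 301 RPKM in ER and from 20.3 and 13.1 to 31.8 and 46.9 in cytosol. The call of Ptgs2 was lost in 9 of 15 alternatives. Ccl2, a monocyte chemokine, stood at 2.82 ± 0.81 (0.076), from 0 and 2 reads in cytosol and 11 and 6 in ER to 10 and 20 and to 22 and 14. Nfkb1, an NF-κB subunit (0.71 ± 0.29, 0.25), and Cxcl5, a neutrophil chemokine (0.26 ± 0.38, 0.80), did not pass. Ccl7, another monocyte chemokine, had 3 reads in all untreated libraries and 36 at 2 h, and passed when the limit was lowered to a mean of 1 read (4.45 ± 0.66, 0.012). The pooled totals of Cxcl1 were 58.0 and 128 RPKM and those of Nfkbia, the NF-κB inhibitor, 12.9 and 20.3 RPKM, and neither passed with that limit (2.22 ± 0.93, 0.53, and 1.19 ± 0.95, 0.79).

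Histones package DNA, and their replication-dependent genes are transcribed mainly in S phase. Of 29 tested genes with a Hist name 8 rose and none fell, with a median of 0.90, and all 29 had a positive change, also after scaling (median 1.03). By fraction, none of the 29 passed in cytosol (median 0.58) and 6 rose in ER (median 1.195), and ER minus cytosol was negative for 2, while none of these differences passed. Of the 59 among the 4275 genes, 19 stood past 2-fold higher by pooled totals and none lower, with a median of 0.80, while 6.85% of all 4275 were past 2-fold higher. Hist1h1a, a linker histone gene, had 94.4 and 172 RPKM in untreated cytosol, 74.8 and 33.2 in untreated ER, 292 and 270 in cytosol at 2 h and 277 and 350 in ER at 2 h. The groups did not overlap, and Hist1h1a rose by 1.88 ± 0.26 (adjusted p = 0.00038). The linker histone genes Hist1h1c and Hist1h1d rose by 1.03 ± 0.23 (0.019) and 1.06 ± 0.25 (0.028), and Hist1h1c went from 606 and 1026 to 1712 and 1252 RPKM in cytosol. The core histone genes Hist1h4a (1.69 ± 0.31), Hist2h4 (1.62 ± 0.32), Hist1h4h (1.56 ± 0.39), Hist1h2bg (1.28 ± 0.30) and Hist1h4j (1.27 ± 0.28) rose with adjusted p between 0.0072 and 0.035. The call of Hist1h4h was lost in 9 of 14 alternatives, and those of Hist1h1d and Hist1h2bg were each lost in 7 of 15. Many histone genes are near-identical copies, so how reads were divided among single H4 and H2B genes is uncertain. Whether the same reads count for several copies was not tested. The histone counts and medians are thus not those of independent genes. Most replication-dependent histone mRNAs carry no poly(A) tail, and these libraries were made by depletion of ribosomal RNA. The 13 tested genes of S phase and replication had a median of 0.01 and none passed.

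Other genes that rose have various roles. Cyp1b1 (a cytochrome P450) and Tiparp (a PARP enzyme), both classic targets of the aryl hydrocarbon receptor, rose by 1.82 ± 0.36 (adjusted p = 0.0095) and 1.54 ± 0.30 (0.0095). Cyp1b1 went from 14.5 and 14.6 to 38.9 and 39.1 RPKM in cytosol and from 7.84 and 16.3 to 60.1 and 57.5 in ER, without overlap. Arnt2, a partner protein of bHLH-PAS factors such as that receptor, rose by 1.37 ± 0.27 (0.0095), from 9.84 and 15.3 to 36.4 and 44.1 RPKM in cytosol and from 5.98 and 9.96 to 15.3 and 20.98 in ER. Brd2, a reader of acetylated histones, rose by 1.40 ± 0.34 (0.030), Mlf1ip, a centromere protein, by 1.35 ± 0.33 (0.030, lost without any 1 of the 8 libraries) and Sqstm1, the autophagy receptor p62, by 1.16 ± 0.30 (0.044). The calls of Brd2 and Sqstm1 were lost in 8 and 9 of 14 alternatives. Under the lower limit of a mean of 1 read, Txnip, an inhibitor of thioredoxin, went from 4 to 53 reads over the 4 libraries (3.58 ± 0.68, 0.039) and Mx2, an interferon-induced GTPase, from 2 to 54 (3.69 ± 0.64, 0.026), and both were named after their values were seen.

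The 8 genes that fell were of several kinds. Plk1, a kinase of mitosis, had 27.6 and 23.01 RPKM in untreated cytosol, 42.3 and 20.6 in untreated ER, 4.77 and 6.71 in cytosol at 2 h and 14.02 and 18.02 in ER at 2 h. The groups did not overlap, and Plk1 fell by 1.41 ± 0.29 on the log2 scale (adjusted p = 0.0095). Of the 14 tested mitosis genes it was the 1 that passed, and the list median was −0.21. Snrpd1, a core protein of spliceosomal particles, fell by 1.16 ± 0.24 (0.0095), from 396 and 249 to 161 and 144 RPKM in cytosol and from 347 and 282 to 131 and 125 in ER. Cbx5, the heterochromatin protein HP1α, fell by 0.90 ± 0.18 (0.0095) and Rbm3, a cold-inducible RNA-binding protein, by 0.69 ± 0.16 (0.028). Anxa5, a phospholipid-binding annexin, fell by 0.72 ± 0.18 (0.030) and Ptma, the chromatin protein prothymosin α, by 0.56 ± 0.12 (0.011). The calls of Rbm3 and Anxa5 were lost in 8 and 9 of 15 alternatives.

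Actb, which encodes β-actin of the cytoskeleton, had 1165 and 1094 RPKM in untreated cytosol and 1009 and 827 in untreated ER, against 593 and 733 in cytosol and 570 and 659 in ER at 2 h. All 2 h libraries were below the untreated ones, and Actb fell by 0.67 ± 0.15 (adjusted p = 0.023). Myl6, a myosin light chain, fell by 0.83 ± 0.18 (0.016). Both belong to the 28 tested genes of the cytoskeleton and of SRF, the serum response factor, of which 24 had a negative change, with a median of −0.37, or −0.24 with 9 positive after scaling. Gapdh, a glycolytic enzyme often taken as a reference, stood at −0.34 ± 0.20 (0.45). All 11 tested glycolysis genes had a negative change and none passed, with a median of −0.45, and 2 of the 11 turned positive after scaling (median −0.32). That scaling moved the median of all tested genes from −0.06 to 0.07, and list medians are to be read against these. By the naming rule, the further falls without overlap were of genes under 10 reads, namely Cox7a2, Kctd17, Uqcc, Agpat5, Cnot7, Amigo3 and 3830406C13Rik, each with 12 to 23 untreated reads over 4 libraries and 1 to 5 at 2 h. They were chosen for the fall and the lack of overlap, so neither is a result about them. The share of genes under 10 reads without overlap is not given here. Ccnd1, cyclin D1, had 7 and 7 reads in untreated cytosol, 13 and 0 in untreated ER, 5 and 2 in cytosol at 2 h and 2 and 0 in ER at 2 h. Its ER libraries overlapped, and it did not pass with the limit at 1 read (−1.09 ± 1.15, adjusted p = 0.85).

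The remaining lists held few calls. Ribosomal proteins had none among 61 tested, with a median of −0.19, and of −0.47 in cytosol and 0.19 in ER. None passed among the 25 tested translation factors (median −0.15), 22 proteasome genes (−0.21), 21 of the extracellular matrix (0.22), 13 cytosolic heat shock proteins (−0.28), 11 of oxidative phosphorylation (−0.09, or 0.03 after scaling) or 10 of ER-Golgi transport (−0.07, or 0.05). The same held for 10 genes of the translocon, signal peptidase and glycosylation (0.35), 9 plasma membrane receptors and adhesion genes (0.10), 5 of autophagy and the lysosome (0.14), 4 SREBP targets (0.15) and 2 TGF-β, BMP and Hippo targets (−0.29). Of 6 Nrf2 targets Sqstm1 was the 1 that passed (median −0.09, or 0.03 after scaling). p53 targets, G1 cyclins and MAPK feedback genes had 5, 4 and 4 genes among the 4275 and none tested.

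The 2 fractions were also tested apart. Of the 1500 tested genes 194 are ER-targeted, and the counts of ER-targeted calls below are to be read against that share. In the cytosol fraction 36 genes passed (2.4%), 34 higher (2.27%) and 2 lower (0.133%), and 27 of the 36 are ER-targeted. Among the 36 were Hsp90b1 (2.70 ± 0.33), Npc2 (a lysosomal cholesterol carrier, 2.67 ± 0.61), Ctsl (cathepsin L, 2.38 ± 0.47), Calu (calumenin, a calcium-binding ER protein, 1.91 ± 0.29) and Ssr3 (a translocon-associated protein, 1.57 ± 0.37). In the ER fraction 16 genes passed (1.07%), 13 higher (0.867%) and 3 lower (0.2%), or 11 and 1 after scaling, and 1 of the 16, Mthfd2, is flagged as ER-targeted. The 2 sets share 1 gene, Rcan1, which is 1 of 36 and 1 of 16. The cytosol count was 21, 23, 14 and 18 without cytosol 0 h a, 0 h b, 2 h a and 2 h b, and the ER count was 4, 5, 2 and 6 without the same libraries of the ER.

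The difference between the fractions was tested gene by gene. ER minus cytosol, 8 genes passed (0.533%), all with a negative difference and all ER-targeted. They are Tmem30a (a lipid flippase subunit, −3.04 ± 0.67), Hsp90b1 (−2.76 ± 0.46), Pdia3 (−2.70 ± 0.46), Mtdh (an ER membrane protein, −2.42 ± 0.49), Calu (−2.39 ± 0.41), Ssr3 (−2.37 ± 0.52), Canx (−2.04 ± 0.42) and Calr (−1.82 ± 0.39), with adjusted p between 0.0075 and 0.042. Tmem30a lost this call in 12 of 14 alternatives, Calr and Ssr3 in 11 of 15 and Canx in 10 of 15. Mtdh lost it in 8 of 15, Pdia3 in 5 of 15, and Hsp90b1 and Calu in 3 of 15 each. For Calu the cytosol libraries went from 44.4 and 44.0 to 161 and 176 RPKM, and the ER libraries from 1140 and 1006 to 659 and 887, with no overlap in either fraction. The mean cytosol level of Hsp90b1 was 20.9 RPKM at 0 h, 443 at 0.5 h, 184 at 1 h, 142 at 2 h and 96.3 at 4 h, so it was highest at 0.5 h, when the mean ER level was lowest at 522 RPKM. No gene passed without cytosol 0 h b, cytosol 2 h b or ER 2 h a, and 4, 5 and 4 passed without ER 0 h a, ER 0 h b and cytosol 2 h a. Over the 194 tested ER-targeted genes the median change was 0.57 in cytosol and −0.35 in ER, and the difference was negative for 162. Over the 1306 others the medians were −0.10 and −0.07, and 618 differences were negative.

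The deposited fraction on the ER was lower at 2 h for most ER-targeted genes. Over 687 ER-targeted genes with a value at every time its median was 0.764 at 0 h, 0.435 at 0.5 h, 0.633 at 1 h, 0.651 at 2 h and 0.72 at 4 h, and 525 genes (76.4%) were lower at 2 h than at 0 h. Over the 180 of them with 10 reads or more the median was 0.907 at 0 h and 0.749 at 2 h, and 86.1% were lower. Over 3226 other genes the medians were 0.494 and 0.508, and 48.6% were lower. The fractions were prepared anew at each time, and the part of the preparation in these differences was not tested.

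**Figure D3:**
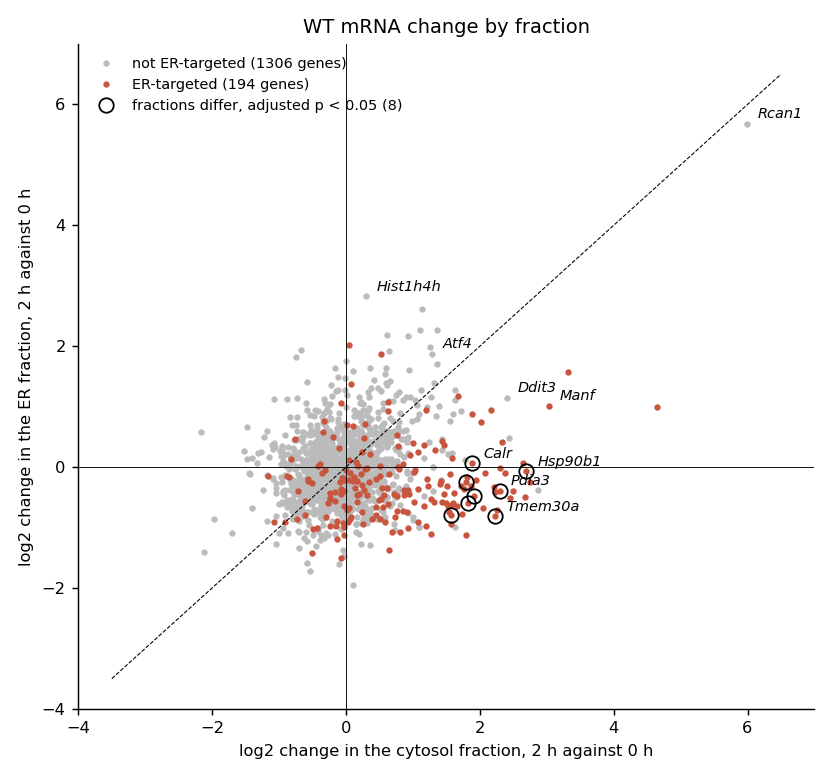
Log2 change from 0 h to 2 h in the cytosol fraction (horizontal axis) and in the ER fraction (vertical axis) of WT mRNA, 1 point per tested gene, with ER-targeted genes coloured, rings around the 8 genes whose fractions differed and a dashed line of equal change. ER-targeted genes lie to the right and below (medians 0.57 and −0.35), and Rcan1 lies high on both axes.

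The 2 h libraries were also compared with those of 1 h and 4 h. Against 1 h no gene passed of 1499 (0.0%) with limma, and with limma voom on the recovered reads the count was 0 as well. By unadjusted p under 0.05, 104 genes were higher and 10 lower. These counts are to be read against the median change of all tested genes from 1 h to 2 h, which was 0.15, or 0.07 after scaling. Against 2 h, 1 gene passed at 4 h (0.0667%), the histone gene Hist2h3b with −1.74 ± 0.26 (adjusted p = 0.0041). The untreated libraries enter these comparisons through the shared estimate of the spread and the limit on reads. Mean levels over the 4 libraries of a time show different courses. Hspa5 stood at 203, 272, 334, 472 and 1119 RPKM at 0, 0.5, 1, 2 and 4 h, and Ddit3 at 90.5, 78.9, 136, 289 and 484 RPKM, both highest at 4 h. Rcan1 stood at 3.48, 42.2, 72.5, 165 and 79.7 RPKM, Hist1h1a at 93.5, 141, 218, 297 and 170 RPKM and Cyp1b1 at 13.3, 16.7, 21.1, 48.9 and 22.98 RPKM, highest at 2 h. Plk1 was lowest at 2 h, at 28.4, 33.6, 19.7, 10.9 and 22.6 RPKM. For none of these 6 genes did the step from 2 h to 4 h pass. The 29 histone genes had a median step of −0.88 from 2 h to 4 h against 0.18 for all tested genes, and after scaling −1.07 against −0.01. Near-identical copies limit this median as well.

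**Figure D4:**
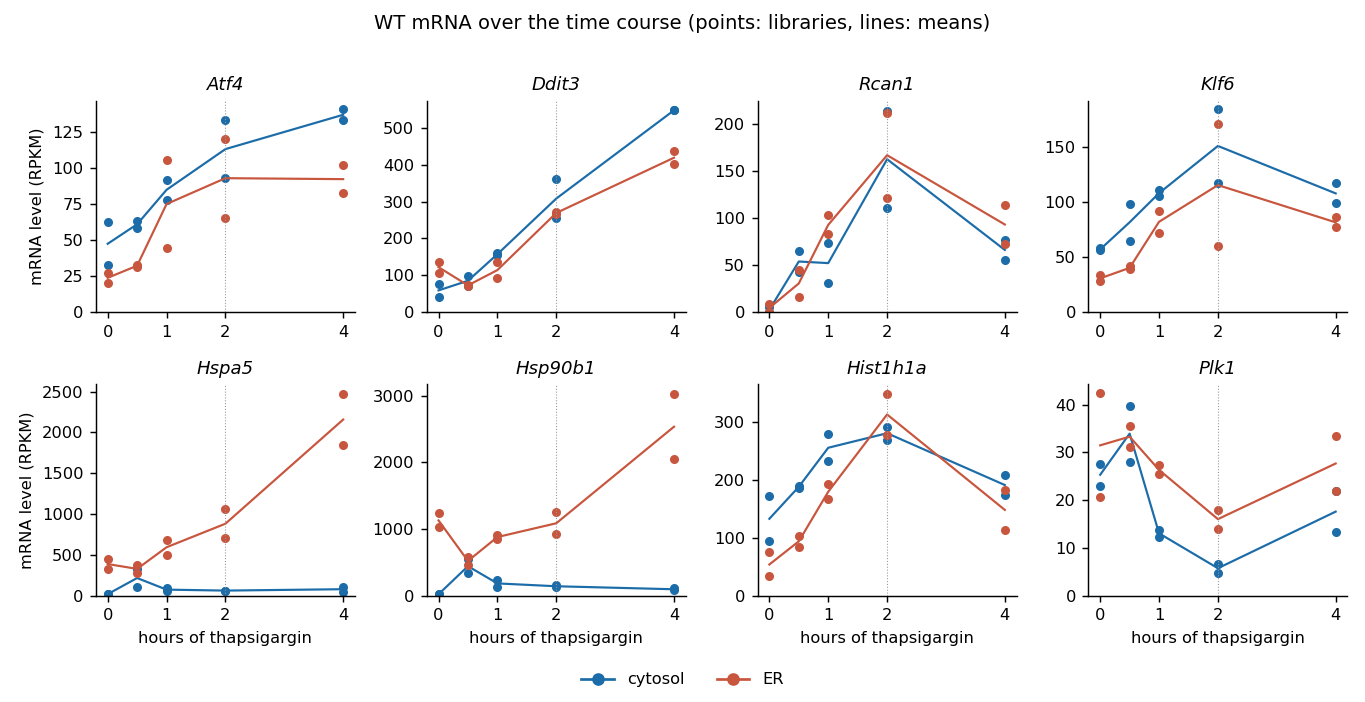
Level of WT mRNA in RPKM (vertical axes, linear) over hours of thapsigargin for 8 genes, with the cytosol and ER fractions in 2 colours, points for single libraries and lines for their means. Rcan1 and Hist1h1a are highest and Plk1 is lowest at 2 h (dotted line), and Ddit3 and the ER level of Hspa5 are highest at 4 h.

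Ribosome footprints of the same cells and time were set against the mRNA. Footprint libraries of 0 h and 2 h held 979526 to 11132394 reads, more than any mRNA library. Among the 1500 genes 283 rose (18.9%) and 149 fell (9.93%) in footprints. The footprint change differed from the mRNA change for 31 genes (2.07%), 24 higher (1.6%) and 7 lower (0.467%), or 16 and 16 after scaling. For Ddit3 the footprint change exceeded the mRNA change by 2.68 ± 0.46 (adjusted p = 0.0018) and for Atf4 by 2.06 ± 0.34 (0.0017). The footprints of Ddit3 rose by 4.46 ± 0.42 and those of Atf4 by 3.64 ± 0.16. Both mRNAs have upstream reading frames known to favour their translation when eIF2α is phosphorylated.

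Other genes with a positive difference had no mRNA change that passed. They include Pnrc2 (a decapping cofactor, 2.50 ± 0.41), Ifrd1 (an mRNA with a known upstream reading frame, 1.96 ± 0.42), Zmat2 (a splicing protein, 1.65 ± 0.32), Azin1 (the antizyme inhibitor, 1.51 ± 0.40), the helicase Eif4a2 (1.47 ± 0.36) and the initiation factor Eif5b (1.37 ± 0.34). This does not make their mRNA unchanged. Depth-scaled ratios of mRNA reads, 2 h over 0 h, were 0.61 for Eif5b and Zmat2, 0.90 for Pnrc2 and 0.99 for Azin1. They were 1.43 for Ifrd1 and 1.91 for Eif4a2. Arnt2 (−1.82 ± 0.39) and Odc1 (ornithine decarboxylase, −1.44 ± 0.35) had a negative difference, and for Arnt2 the mRNA rose while the footprint change was −0.45 ± 0.31. For Rcan1 (−0.17 ± 0.75, adjusted p = 0.94), Hspa5 (0.52 ± 0.56, 0.70) and Hist1h1a (−0.28 ± 0.31, 0.70) no difference passed. The count of 31 fell to 18 and 9 without mRNA cytosol library a of 0 h and 2 h, and to between 6 and 18 without any 1 of the 8 footprint libraries. Azin1 lost its call in 15 of 20 alternatives, Eif4a2 in 12, Eif5b in 11 and Odc1 in 11 of 21, Ifrd1 in 3 and Arnt2 in 1 of 20. The differences of Atf4, Ddit3 and Rab8b (a small GTPase, 1.39 ± 0.25) passed under all 21 alternatives that tested them, and those of Pnrc2 and Zmat2 under all 20.

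**Figure D5:**
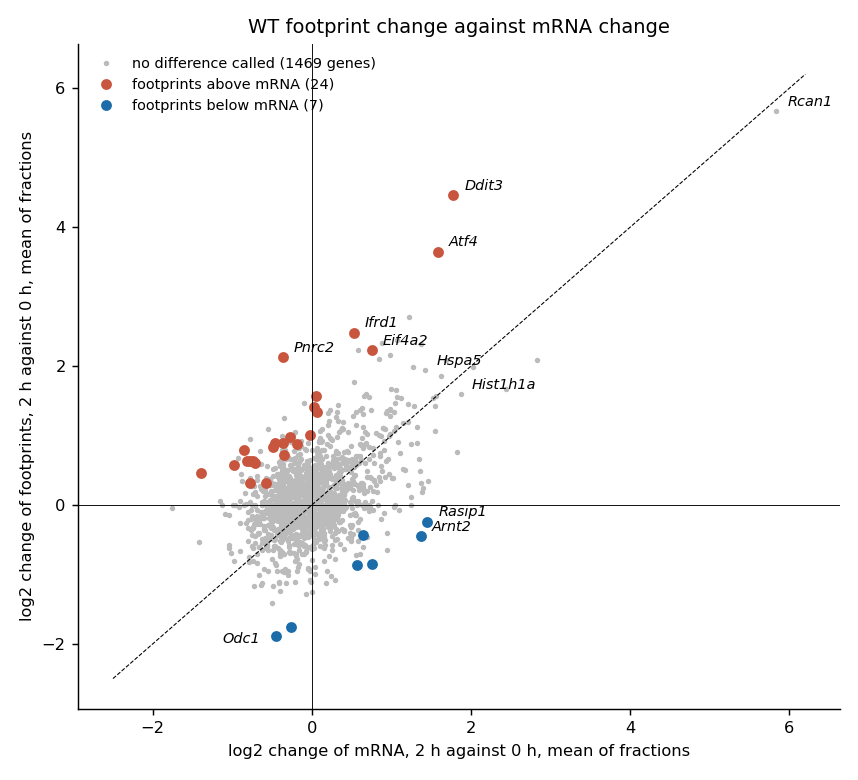
Log2 change from 0 h to 2 h of WT mRNA (horizontal axis) and of WT footprints (vertical axis), both as means over the fractions, 1 point per tested gene, with the line of equal change. Ddit3 and Atf4 lie above the line by 2.68 and 2.06, Arnt2 below it by 1.82, and Rcan1 near it.

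The authors' pooled mRNA totals of the other genotypes are given without a test. Rcan1 stood at 9.73 RPKM at 0 h and 200 at 2 h in S51A cells and at 0 and 13.3 RPKM in cells labelled ATF4-/-. Ddit3 stood at 49.6 and 325 RPKM in S51A and at 26.2 and 486 in cells labelled ATF4-/-, so its total was higher at 2 h in all 3 genotypes. Hspa5 stood at 588 and 1014.5 RPKM in S51A and at 189 and 940 in cells labelled ATF4-/-. Hist1h1a stood at 1385 and 3411 RPKM and at 889.6 and 3116 RPKM in the same order. Atf4 stood at 227 and 58.2 RPKM in S51A and at 10.53 and 200 in the cells labelled ATF4-/-, whose Atf4 total thus went up at 2 h although their label names the loss of that gene. The labels do not name the part of Atf4 that was removed. Klf6 stood at 70.1 and 33.8 RPKM in S51A, lower at 2 h, and at 2.31 and 29.4 RPKM in cells labelled ATF4-/-.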

How the data were processed

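mRNA libraries depleted of ribosomal RNA and ribosome footprints of MEFs were made from digitonin (cytosol) and DDM (ER) extracts, per the labels' protocols. Per the submitters' processing notes, reads were handled with cutadapt 1.6 and Bowtie 1.1.1. The sources used here name no genome build. The authors deposited 1 RPKM total per gene, genotype and time, pooled over replicates and fractions, and the fraction on the ER. The unit RPKM was read from the values. A library without reads is left out of their average, and footprint libraries need 4 reads, as tested on the values.

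Single libraries were separated as whole-read multiples (97.8% of mRNA values solved), giving reads and RPKM per library without a replicate number. Of the 4275 genes 476 had a library of 0 h or 2 h that could not be separated, and these were not tested. By pooled totals 12.8% of the 476 lay past 2-fold lower and 6.72% higher. For the 3799 others the shares were 6.63% and 6.87%. Tests used limma 3.58.1 (R 4.3.3, trend) on log2(RPKM + 1), which understates changes of low genes, over all 20 WT mRNA libraries, with a mean per fraction and time. Genes needed a mean of 10 reads over 8 libraries. p-values were Benjamini-Hochberg adjusted over all genes tested. Fractions of the same cells enter as separate samples, which leaves shared error out. For untreated mRNA the replicate numbers in the labels differ between the fractions, so not all libraries are shown to be pairs. Replicate libraries differed by a chi-square per degree of freedom of 1.33 to 2.34. The procedure was tested on simulated data. Alternatives were other pseudocounts, read limits, scaling, voom, fewer times and leaving out each library.

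Named genes are the called genes, the largest changes, targeted genes, sentinels and up to 4 per list by p. Hyou1, Hnrnpa3, Atp2a2, Ero1l, Gadd45b, Ccl7, Txnip and Mx2 were named outside this rule, after their values were seen. Members and lists were chosen with earlier results of these data known. Among the gene names 27 appear as dates, and the 1 among the calls is left unnamed.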

Additional observations from a re-analysis of the deposited data

Results flagged for a closer look

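For 8 ER-targeted genes the change from 0 h to 2 h differed between the fractions by the test of the difference itself (limma, over 2 libraries per fraction and time). ER minus cytosol, the log2 differences were −3.04 for Tmem30a, −2.76 for Hsp90b1, −2.70 for Pdia3, −2.42 for Mtdh, −2.39 for Calu, −2.37 for Ssr3, −2.04 for Canx and −1.82 for Calr, with adjusted p between 0.0075 and 0.042. In each of them the cytosol level was higher at 2 h. Tmem30a lost its call in 12 of 14 alternatives, Calr and Ssr3 in 11 of 15 and Canx in 10 of 15. Mtdh lost its call in 8 of 15, Pdia3 in 5 of 15, and Hsp90b1 and Calu in 3 of 15 each. No gene passed without cytosol 0 h library b, cytosol 2 h library b or ER 2 h library a.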

How the results depend on the processing

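No paired analysis was possible because the separated libraries carry no replicate number. No called gene changed sign under an alternative. Scaling turned the medians of some lists from below to above 0, namely ER chaperones in the ER fraction (−0.07 to 0.10), oxidative phosphorylation (−0.09 to 0.03), ER-Golgi transport (−0.07 to 0.05) and Nrf2 targets (−0.09 to 0.03), as well as that of all tested genes (−0.06 to 0.07). Centring turned the pooled balance from 293 higher and 313 lower to 360 and 257. Of 511 repeats of the 35 calls, 336 passed again and 175 did not. The pooled count of 606 became 302 with a pseudocount of 10, 1167 with a floor of 10 RPKM and 203 with a floor of 50, and 513 or 558 in 2 settings chosen after seeing the data (separated genes only, without or with libraries at 0 reads averaged in). The limit of 1 read kept 12 of the 35 calls of the mean of fractions. With a limit of 1 read the calls were 23 (mean of fractions), 13 (cytosol), 4 (ER), 4 (ER minus cytosol), 1 (2 h against 1 h) and 0 (4 h against 2 h), in a larger set of 7460 genes. With 20 reads they were 23 (cytosol), 7 (ER), 14 (ER minus cytosol), 1 (2 h against 1 h) and 15 (footprints minus mRNA). A pseudocount of 5 gave 22 (cytosol), 5 (ER minus cytosol) and 3 (4 h against 2 h), and 10 gave 20, 2 and 6. voom gave 21 (cytosol), 3 (ER) and 8 (4 h against 2 h), and the 2 compared times alone gave 5 (ER). Leaving out each library in turn gave 9 to 32 (mean of fractions), 14 to 23 (cytosol), 2 to 6 (ER), 0 to 10 (ER minus cytosol), 0 to 4 (2 h against 1 h), 1 to 2 (4 h against 2 h) and 6 to 41 (footprints minus mRNA), where a lone library is assumed to vary like the other groups. The causes were not tested. Depth limits the result: the median standard error was 0.30 log2, and most of the 4275 genes had too few reads to test.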
